A study of Mus musculus with 10 samples.

Results

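The genes described here are the serum- and glucocorticoid-regulated kinase Sgk1, the NF-kB inhibitor Nfkbia, the transcription factor Klf9, the stress protein Gadd45g, the co-chaperone Fkbp5 and the glucocorticoid receptor Nr3c1. They were found by symbol: every clone annotated to 1 symbol, that symbol being one of these, was taken. This gave 6 clones with 12 spots, out of 15600 clones with 31200 spots, of which 9866 clones carry a single symbol. Each gene had 1 clone, and a clone was spotted as 2 neighbouring spots. RNA came from M-1 cells, a line from the mouse cortical collecting duct, grown to confluence and then kept in medium with charcoal-treated serum and nominally no steroid hormone. Treated cells received 100 nM dexamethasone, a synthetic glucocorticoid, for 3 h, and control cells received the steroid-free medium. In 3 arrays, called treated pairs 1 to 3, treated cells were labelled with Cy5 and control cells with Cy3. In 2 further pairs of channels, control pairs 1 and 2, both dyes carry a control title. Of the 7 channels with a control title, 5 have a treatment field that speaks of dexamethasone; groups were taken from the titles, on which every direction below rests.

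The glucocorticoid receptor, encoded by Nr3c1, rests in the cytoplasm in a complex with chaperones of the Hsp90 class and immunophilins such as Fkbp5. On binding hormone it enters the nucleus and binds glucocorticoid response elements, a pair of inverted AGAACA motifs, near target genes. In the collecting duct the best known early target is Sgk1, a kinase that keeps the epithelial sodium channel at the cell surface. Nfkbia, Klf9 and Fkbp5 are induced in many tissues, and Fkbp5 in turn lowers the hormone affinity of the receptor.

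A palindromic response element was present at 1 of the 10 promoter windows searched, taken from the RefSeq table (GRCm38.p6) for 5 of the 6 genes. No Nr3c1 window was part of the search. Each window runs from 250 bases before to 50 bases after an annotated start site, and both strands were searched. The letters AGAACA, any 3 bases and TGTTCT were found in 3 of all 32851 windows, or 0.00913%. One of these was the fifth of the 6 Sgk1 windows, at chr10:21993640-21993939 on the plus strand, where the element began at position -189 from that start site and 965 bases upstream of the last annotated one. The shorter AGAACA motif, which the full element contains on each strand, was found in 3 of the 10 windows and in 19% of all windows. The NF-kB consensus was found in 1 of the 10, the Nfkbia window at chr12:55492598-55492897 on the minus strand, from position -29, and in 4.51% of all windows. The windows of Klf9, Gadd45g and Fkbp5 held none of these letters. The Sgk1 window with the full element and the Nfkbia window are shown. They were picked because Sgk1 was listed on the most arrays and Nfkbia had the largest difference with band-midpoint centring, explained below. Capitals mark the element in the Sgk1 window and the NF-kB consensus in the Nfkbia window. A match is a description of the letters and not a bound site.
Sgk1: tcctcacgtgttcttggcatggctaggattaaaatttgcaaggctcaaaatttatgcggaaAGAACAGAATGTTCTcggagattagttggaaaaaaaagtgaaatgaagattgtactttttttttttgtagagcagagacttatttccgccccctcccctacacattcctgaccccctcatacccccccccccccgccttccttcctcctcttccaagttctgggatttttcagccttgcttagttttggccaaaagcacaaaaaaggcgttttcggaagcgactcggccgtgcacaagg
Nfkbia: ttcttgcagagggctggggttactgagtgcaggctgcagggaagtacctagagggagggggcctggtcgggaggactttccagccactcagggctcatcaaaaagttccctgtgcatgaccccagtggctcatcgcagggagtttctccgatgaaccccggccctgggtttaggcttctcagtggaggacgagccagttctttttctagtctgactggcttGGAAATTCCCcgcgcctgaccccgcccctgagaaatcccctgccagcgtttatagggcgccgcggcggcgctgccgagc

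The treated arrays list spots with outlying ratios alone, 12.1% to 12.8% of spots each, and leave an empty band around the centre, whereas the control pairs list 99.2% and 99.4% of spots. Channel medians of intensity lay between 327 and 1076. Ratios are log2 Cy5/Cy3, centred on the band's midpoint (treated pairs) or on a lowess curve (control pairs). Where a treated array lists no value for a spot, its ratio is taken to have fallen inside this band, or the spot could not be read. The listing rule itself is not given. A mean over treated pairs is therefore enlarged by selection, and its SD is narrowed. A change in RNA per cell and a change in the share of expressing cells cannot be told apart. The labels do not say that replicates are separate cultures, so p-values reflect the spread between these samples alone, which may be technical. Of 18 collecting duct markers 7 genes had a clone, and 8 of their 13 clones were brighter than the channel median in every control-pair channel, against 2 of 14 fibroblast, 0 of 2 proximal tubule and 0 of 3 leukocyte and endothelial clones. The 7 genes were Krt7, Krt8, Krt18, Cdh1, Gata3, Tfcp2l1 and Slc4a1. The water and sodium channel genes that define principal cells were on the list but had no clone annotated to them alone.

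**Figure D1:**
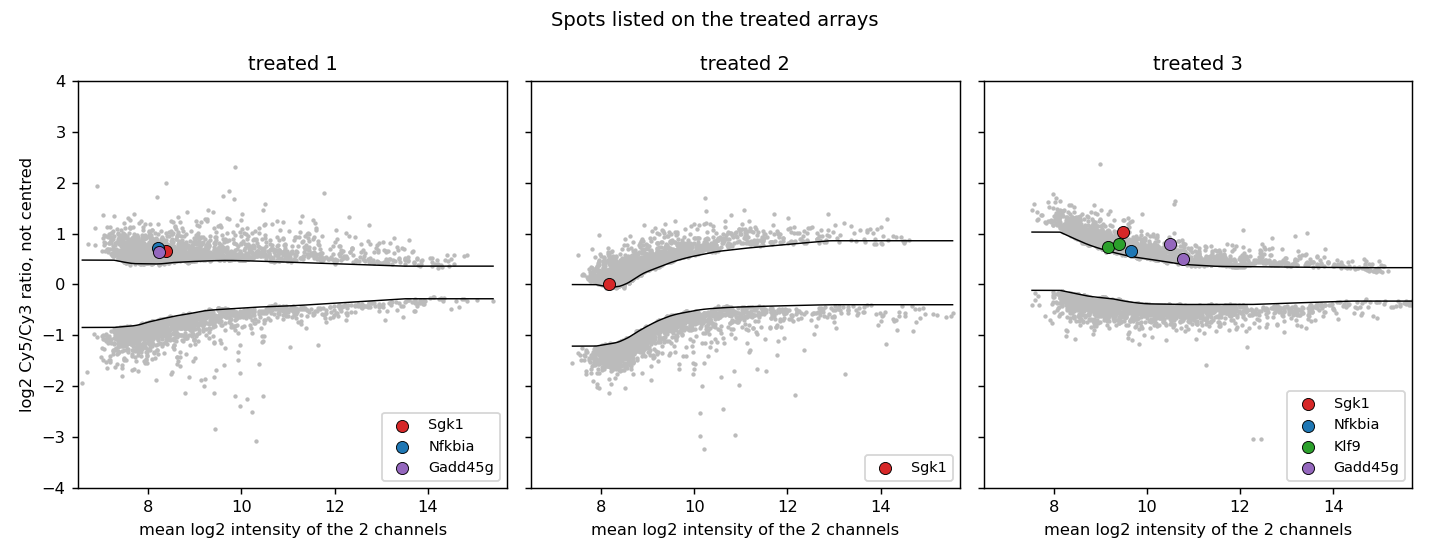
Uncentred log2 Cy5/Cy3 ratio against mean log2 intensity for every spot listed on treated pairs 1 to 3 (grey), with the smoothed edges of the empty band as lines and the listed spots of Sgk1, Nfkbia, Klf9 and Gadd45g in colour. The 10 coloured spots lie above the upper edge, and the Sgk1 spot of treated pair 2 sits at an uncentred ratio of 0.0050.

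Dexamethasone pairs listed 4 of the 6 genes, Sgk1, Nfkbia, Klf9 and Gadd45g, and always with the higher ratio, while Fkbp5 and Nr3c1 were not listed. Of all clones, 48.2% were listed on no treated array, and 23.5% were listed higher on at least 1 and lower on none. Over the 3 treated arrays the 12 spots gave 36 readings, of which 10 were listed higher, 0 lower and 26 not listed. That is 27.8% listed higher, against a background of 6.36% of all spots. By array the count was 3, 1 and 6 of the 12 spots, against backgrounds of 6.38%, 6.17% and 6.53% listed higher and 5.73%, 6.63% and 6.3% listed lower. Without treated pair 3 it was 4 of 24 readings, or 16.7%, against 6.28% of all spots. The genes were chosen with earlier results of these data known, so this share is a description and has no test. When the control pairs were held to cutoffs that list the same share of spots in each intensity range, 1 of the 24 readings of these genes was higher and 2 were lower, where 6.37% and 5.68% of all spots were higher and 6.22% and 6.92% lower. Of the 10 listed readings, 2 were brighter in both channels than the array's medians over its listed spots. On treated pair 1, Cy3 read 231 for Nfkbia, 241 for Gadd45g and 264 for Sgk1, where the lower quartile of listed spots was 250. The part of low intensity in these listings was not tested.

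No member that could be tested passed a test of treated against control pairs. Sgk1 was the only member among the 213 clones fitted on all pairs. Fkbp5 and Nr3c1, without a treated value, entered neither limma fit. In limma on the 213 clones valued in all 5 pairs, 0 clones were higher (0%) and 1 was lower (0.469%) at a Benjamini-Hochberg adjusted p under 0.05, while unadjusted p-values under 0.05 were found for 22 higher (10.3%) and 26 lower clones (12.2%). In a wider limma fit, of the 8056 clones with a value on at least 1 treated array, the calls were 0 higher (0%) and 1 lower (0.0124%), with 1328 clones higher at an unadjusted p under 0.05 (16.5%). Those unadjusted shares are themselves enlarged by the selection of outlying spots. The listing test counts spots listed higher minus lower and is scored against the exact distribution for independent arrays. A call also required a value on all 3 treated arrays, each beyond both control ratios. It called 3 clones higher (0.0192%) and 3 lower (0.0192%), none of them a member. Of the members only Sgk1 met that requirement, and the lowest adjusted p of a member in the listing test was 0.576.

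Sgk1 was the member listed on all 3 treated arrays, as were 0.34% of clones that were listed higher on each and lower on none. Spot 1 read 264 in Cy3 and 419 in Cy5 on treated pair 1, and 501 and 1019 on treated pair 3. Spot 2 read 287 and 288 on treated pair 2. Each treated array thus listed only 1 of the 2 Sgk1 spots, and not always the same one; over all clones listed on an array, 11.7% to 13.5% had both spots listed. In control pair 1 the spots read 815 and 544 in Cy3 and 605 and 555 in Cy5, and in control pair 2 they read 494 and 583 in Cy3 and 924 and 912 in Cy5. On the uncentred scale the listed ratios were 0.67, 0.0050 and 1.02 in treated pairs 1, 2 and 3. The dyes were therefore equally bright on treated pair 2, and the higher listing there rests on a band whose midpoint lay at -0.61 at that brightness.

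Centred, Sgk1 stood at 0.79, 0.61 and 0.89 in the treated pairs, a mean of 0.77 ± 0.14 (SD, log2, n = 3). The control pairs stood at -0.04 and 0.14, so the groups did not overlap; of the 213 clones valued in all 5 pairs, 44 (20.7%) also had every treated ratio above both control ratios. Limma on the 213 clones put the difference at 0.71 (standard error 0.21, adjusted p = 0.212). The exact permutation test over pairs gave a two-sided p of 0.2, the smallest that 3 pairs against 2 allow. In the listing test its net of 3 spots had an unadjusted p of 0.0150 and an adjusted p of 0.576, and 1.27% of all clones had a net at least as high. Its distance beyond the band edge was 0.25, 0.054 and 0.44, larger than for 69%, 17.2% and 95.7% of the spots listed higher on those arrays.

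The 2 Sgk1 spots of control pair 1 lay 0.65 apart on the centred scale, at -0.36 and 0.29, where the median clone had its spots 0.25 apart and 5% of clones had them more than 0.81 apart. In control pair 2 they were 0.16 apart. The spread between spots of 1 pair was thus nearly as large as the treated difference. By single channels, on a log2 scale that sets the median mean intensity of the 213 clones to 0 on each array, Cy5 read 0.22, -0.37 and 0.36 in the treated pairs against 0.71 and -0.33 in the control pairs, which overlap. Cy3, control RNA on every array, read -0.57, -0.99 and -0.53 on the treated arrays and 0.74 and -0.47 on the control pairs. With Cy5 channels alone the limma difference was -0.12 (standard error 0.51, adjusted p = 0.971), so on this scale the treated Cy5 channels were not higher on average. On this scale Cy5 minus Cy3 is the centred ratio, so the channel values carry the centring and are not free of the partner dye. On treated pair 2, for example, the spot read 287 in Cy3 and 288 in Cy5. The part of the Cy3 level in the ratio was not tested.

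By distance over the 5 centred pair ratios, the named clones most like Sgk1 among 128 were those of Zfp943 (0.32), Jmjd6 (0.36) and Lamc1 (0.37). Zfp943 encodes a zinc finger protein, Jmjd6 a Jumonji-domain hydroxylase and Lamc1 the gamma-1 chain of laminin. Their treated means were 0.72, 0.66 and 0.72 and their limma adjusted p-values 0.212, 0.224 and 0.212. None of these clones passed either.

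**Figure D2:**
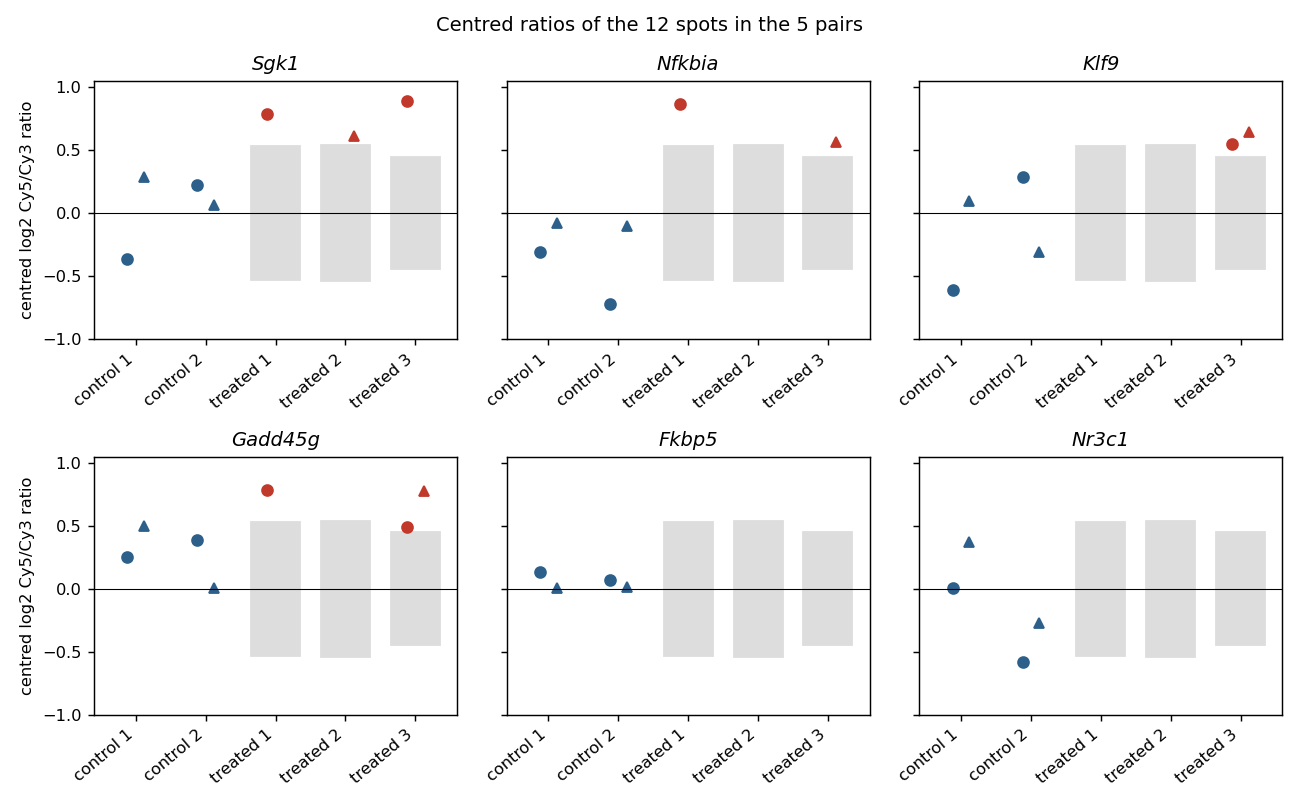
Centred log2 Cy5/Cy3 ratios of the 12 spots (circles spot 1, triangles spot 2) in the 2 control pairs (blue) and the 3 treated pairs (red); grey boxes span the array's median band, where spots are not listed. Fkbp5 and Nr3c1 have no treated value, and the listed values of the other genes lie between 0.49 and 0.89.

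Nfkbia, which holds NF-kB in the cytoplasm, was listed on 2 treated arrays at 1 spot each, as were 4.21% of clones listed higher on 2 or more arrays and lower on none. Spot 1 read 231 in Cy3 and 380 in Cy5 on treated pair 1, and spot 2 read 640 and 1014 on treated pair 3. In control pair 1 the spots read 852 and 679 in Cy3 and 681 and 583 in Cy5, and in control pair 2 539 and 743 against 611 and 930. Cy5 was brighter than Cy3 on both treated arrays, by 0.72 and 0.66 on the uncentred log2 scale. The centred ratios were 0.86 and 0.56, a mean of 0.71 ± 0.21 (SD, log2, n = 2), and the control pairs stood at -0.19 and -0.41. The groups did not overlap, as in 562 of 1918 clones with 2 treated values (29.3%). The difference of 1.02 (standard error 0.24) was the largest of the 4 listed members with band-midpoint centring, though not with median centring or without normalisation, and it did not pass in the wider limma fit (adjusted p = 0.145). A share of it lay in the control pairs, which were below 0: spot 1 of control pair 2 stood at -0.72, beyond the matched cutoff of 0.55, while spot 2 of the same pair stood at -0.11. By single channels Cy5 read 0.09 and 0.37 in the treated pairs, between the control values of 0.79 and -0.63.

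Klf9, a zinc finger transcription factor of the Krüppel-like family, was listed on 1 treated array, as were 23.5% of clones listed higher on at least 1 array and lower on none. Both of its spots were listed there: on treated pair 3 they read 446 and 515 in Cy3 and 745 and 892 in Cy5. The centred ratios were 0.55 and 0.65, only 0.083 and 0.19 beyond the band edge. In the control pairs its spots disagreed, at -0.61 and 0.10 in control pair 1 and at 0.29 and -0.31 in control pair 2, and the first of these lay beyond the matched cutoff of 0.50 on the low side. The spot-to-spot gaps of 0.71 and 0.60 compare with a treated minus control difference of 0.73 (standard error 0.30). The wider limma fit gave an adjusted p of 0.156, with 1 treated value that is assumed to vary like the control pairs and the other clones. By single channels Cy5 read 0.02 in the treated pair, between the control values of -0.03 and 0.34. A single treated pair above both control pairs was seen in 2907 of 5925 clones with 1 treated value (49.1%), so it was common among such clones.

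Gadd45g, a protein that binds cell cycle and stress kinases, was listed on treated pairs 1 and 3. Of all clones, 4.21% were listed higher on 2 or more arrays and lower on none. On treated pair 1 spot 1 read 241 in Cy3 and 376 in Cy5. On treated pair 3 spot 1 read 1481 and 2085 and spot 2 read 1103 and 1915. The centred ratios were 0.78 for treated pair 1 and 0.63 for the mean of both spots on treated pair 3, or 0.71 ± 0.11 (SD, log2, n = 2). Its control pairs were also above 0, at 0.38 and 0.20, and spot 2 of control pair 1 reached 0.50, beyond the matched cutoff of 0.47. The groups did not overlap, as in 562 of 1918 clones with 2 treated values (29.3%). The difference of 0.42 (standard error 0.22) was the smallest of the listed members with band-midpoint centring, though not without normalisation. Its adjusted p in the wider limma fit was 0.197. By single channels Cy5 read 0.07 and 1.39 in the treated pairs and 1.00 and 1.22 in the control pairs, which overlap. Like Sgk1 it had a net of 3 spots, with an adjusted p of 0.576 in the listing test.

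Ordered by the difference with band-midpoint centring, Nfkbia (1.02) stood above Klf9 (0.73), Sgk1 (0.71) and Gadd45g (0.42); with median centring or without normalisation Klf9 stood highest, and without normalisation Sgk1 stood lowest. With standard errors of 0.24, 0.30, 0.20 and 0.22 from the wider limma fit, neighbours in this order did not differ beyond their error. The listing itself fixes a large treated ratio: all spots listed higher on treated pairs 1, 2 and 3 had median centred ratios of 0.69, 0.70 and 0.57, and the members' listed spots lay between 0.49 and 0.89.

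Fkbp5 had 0 of 6 readings listed, as had 48.2% of all clones. Its spots had values in both control pairs, at 735 and 865 in Cy3 and 804 and 913 in Cy5 of control pair 1, and at 465 and 364 in Cy3 and 841 and 748 in Cy5 of control pair 2. In control pair 1 they were above the channel medians of 488 in Cy3 and 327 in Cy5. In control pair 2 they were below the channels' lower quartiles, 557 in Cy3 and 866 in Cy5. The centred control ratios of the 4 spots lay between 0.0069 and 0.14. Its duplicate spots were the closest of the 6 genes, 0.13 and 0.06 apart. The bands of treated pairs 1, 2 and 3 reached 0.66, 0.63 and 0.57 in centred ratio at their widest points and narrowed to 0.32, 0.52 and 0.33. If the band edge was the listing limit, a usable spot without a listing had a ratio within these widest points. The edge is smoothed and inferred from listed spots, so the limits are approximate. The smallest listed ratios, 0.29, 0.48 and 0.25 in size, were below the narrowest points. No fold of Fkbp5 is measured.

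Nr3c1, the receptor itself, also had 0 of 6 readings listed, and the same limits apply to it. Its spots read 547 and 434 in Cy3 and 409 and 376 in Cy5 of control pair 1, and 1798 and 1464 in Cy3 and 1222 and 1266 in Cy5 of control pair 2. The centred ratios were 0.0049 and 0.37 in the first pair and -0.58 and -0.27 in the second, so the clone means, 0.19 and -0.42, had opposite signs with control RNA in both dyes. All 4 readings lay inside the matched cutoffs.

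Other genes of the same pathways were read from lists, with the 6 genes taken out. The remaining 27 clones of glucocorticoid-induced genes had 10 of 162 readings listed higher (6.17%) and 4 lower (2.47%), against 6.36% and 6.22% of all spots. The higher share was thus at the background outside the members. None of those clones was listed the same way on 2 treated arrays. Their median difference was 0.35 over 13 clones with a fit, and 0 passed in limma. Over all 8056 clones in the wider fit the median difference was 0.060, with 51.4% above 0.

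SGK kinases, their partners and substrates (17 other clones) had 9 of 102 readings higher (8.82%) and 2 lower (1.96%). Ywhab, a 14-3-3 protein, was the clone listed the same way on 2 arrays, at 0.64 ± 0.17 (SD, log2, n = 2). Its control pairs stood apart, at -0.43 and 0.24 (mean -0.09), and its other clone was not listed. NF-kB and its regulators (12 other clones) had 2 of 72 readings higher (2.78%) and 9 lower (12.5%), the opposite side from Nfkbia. Map3k7, a kinase upstream of the NF-kB inhibitor kinase, had clone 14013 listed lower on 2 arrays, as were 4.2% of clones. Its treated pairs stood at -0.62 ± 0.13 (SD, log2, n = 2). Its control pairs stood far apart, at 0.34 and -0.33 (mean 0.0055). Of the other Map3k7 clones, 5630 was not listed and 13553 was listed lower once. Neither Ywhab nor Map3k7 passed in the wider limma fit (adjusted p = 0.150 and 0.169).

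The KLF family (16 other clones) had 5 of 96 readings higher (5.21%) and 6 lower (6.25%), both near the background. Sp1, a related zinc finger factor, had clone 13034 at 0.68 ± 0.31 (SD, log2, n = 2) against -0.15, while another of its 3 clones was listed lower once. The 2 other clones of the GADD45 list, Pcna and Cdk1, had 0 of 12 readings listed.

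The receptor complex and its cofactors (43 other clones) had 32 of 258 readings higher (12.4%) and 11 lower (4.26%). The control pairs, at matched cutoffs, had 14 higher and 10 lower in the whole list of 45 clones. Those control counts cover 2 pairs, not 3 arrays, and include Fkbp5 and Nr3c1, so they cannot be set directly against the treated counts. Hspa8, a constitutive chaperone of the Hsp70 class, had 3 of its 6 clones listed higher on 2 or more arrays, at treated means of 0.60 to 0.62, but its control pairs averaged 0.19 to 0.39 in those clones. Fkbp4, the immunophilin that stands in for Fkbp5 when the receptor binds hormone, had clones 2348 and 5041 listed higher on treated pairs 1 and 2. Clone 2348 stood at 0.80 ± 0.05 (SD, log2, n = 2) against -0.23. Its difference of 1.02 (standard error 0.21) was close to that of Nfkbia and did not pass in the wider limma fit (adjusted p = 0.145). Clone 5041 stood at 0.73 ± 0.24 (SD, log2, n = 2) against control pairs at -0.17 and 0.33. The other Fkbp4 clone was listed lower once. Hsp90aa1, an Hsp90 chaperone that holds the receptor ready for hormone, had clone 15323 listed lower, among 9 clones that were listed in both directions. That clone stood at -0.68 ± 0.19 (SD, log2, n = 2) against control pairs at -0.31 and 0.21. FKBP immunophilins other than Fkbp5 (10 clones) had 7 of 60 readings higher (11.7%) and 3 lower (5%). None of the clones of these lists passed in limma in either fit.

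**Figure D3:**
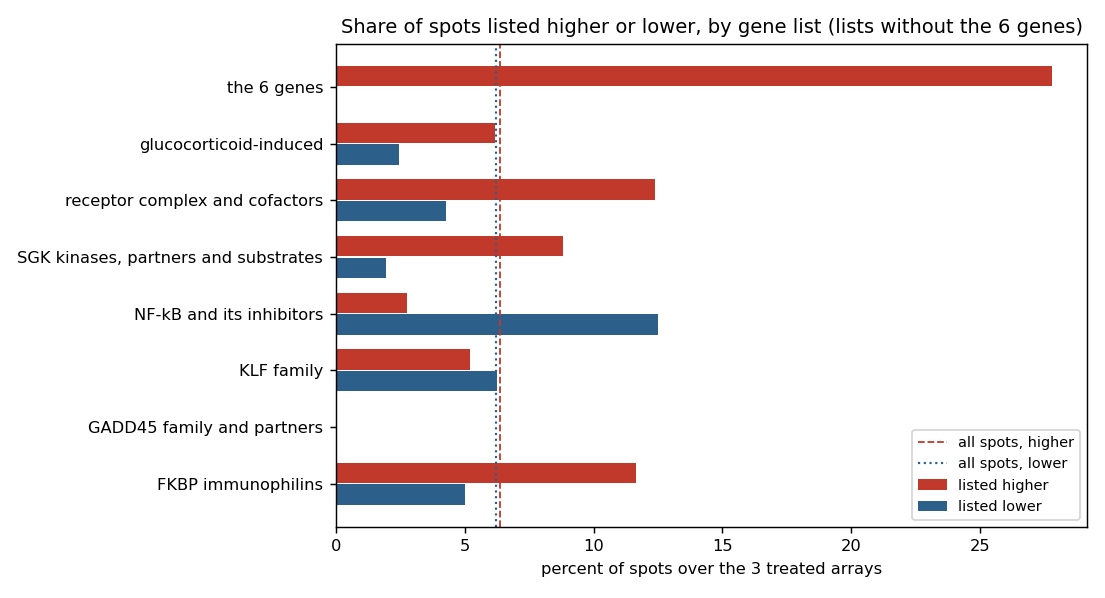
Percent of spot readings over the 3 treated arrays that were listed higher (red) or lower (blue), for the 6 genes and for 7 gene lists from which the 6 were removed; dashed and dotted lines give the share over all spots, 6.36% higher and 6.22% lower. The 6 genes stand at 27.8% higher and 0% lower, while the other glucocorticoid-induced clones stand at 6.17% higher.

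Among cell type markers, fibroblast and matrix clones had 4 readings higher (4.76%) and 3 lower of 84, and proximal tubule clones 1 (8.33%) and 1 of 12. Leukocyte and endothelial clones had 0 higher and 1 lower of 18, and collecting duct clones 5 higher (6.41%) and 0 lower of 78, beside 6.36% higher and 6.22% lower over all spots. Slc4a1, an anion exchanger, stood at 0.81 ± 0.17 against 0.05 and the matrix proteoglycan Dcn at 0.71 ± 0.30 against 0.16 (SD, log2, n = 2 each). Their part in the values of the members was not tested.

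The size of the members' differences moved with the centring. All 10 listed spots stayed above 0 with median centring, without normalisation or with 50 added to each intensity. Under these settings 6.29%, 6.25% and 6.36% of all spots were listed and above 0, whatever their direction before. With median centring that share is fixed by the centring itself. Median centring gave differences of 0.11 for Sgk1, 0.24 for Nfkbia, 0.69 for Klf9 and -0.013 for Gadd45g. The medians of the listed ratios, 0.44, -0.49 and 0.35 in treated pairs 1 to 3, lie near an edge of the empty band and not in its middle, since no ratio is listed there. Without normalisation the differences were 0.28 for Sgk1, 0.70 for Nfkbia, 1.10 for Klf9 and 0.45 for Gadd45g. Klf9 was larger there than with the band midpoint (1.10 against 0.73), and Gadd45g slightly so (0.45 against 0.42).

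**Figure D4:**
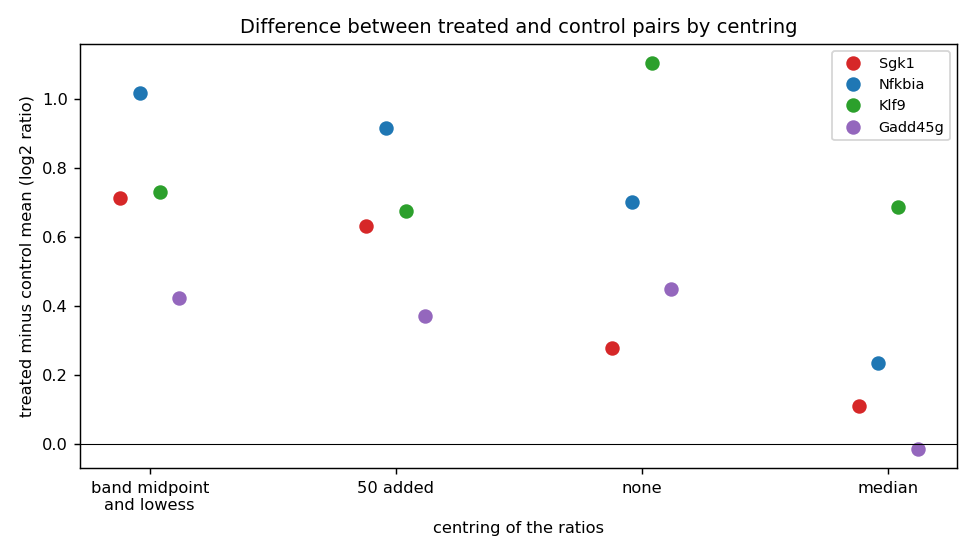
Mean centred log2 ratio of the treated pairs minus that of the control pairs for Sgk1, Nfkbia, Klf9 and Gadd45g under 4 ways of centring the arrays. Sgk1 runs from 0.11 to 0.71, and Gadd45g falls to -0.013 with median centring.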

How the data were processed

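Spot intensities of 10 channels on spotted mouse cDNA arrays were used. The authors deposited whole-number mean intensities, measured in Imagene 4.0 per the series' design text; for background correction, normalisation and the listing of spots, the method is not given in the sources used here. Titles set 7 control and 3 treated channels and joined them into 5 pairs. The control titles name no array, so that joined control channels shared a slide is not stated; log2 intensities of joined channels correlated across spots at 0.822 to 0.933, against 0.523 to 0.767 for other joins. Dye and treatment run together, no dye swap was made, and control pairs lie on other arrays than treated pairs, so these cannot be told apart.

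Control pairs were centred by lowess (span 0.2) and treated arrays on the midpoint of the empty band, found in windows of 150 spots and smoothed (span 0.3; statsmodels 0.14.6). Spots of a clone were averaged. The pair was the block in limma 3.58.1 (R 4.3.3, statmod 1.5.0), 3 treated against 2 control pairs, with Benjamini-Hochberg adjustment at 0.05. The scripts were tested on simulated data. Control cutoffs list 12.6% of spots in each of 20 intensity ranges. Of the probes, 19732 have 1 symbol, 548 several and 10920 none. The members and lists were chosen with earlier results of these data known. Other genes are named where a clone was listed the same way on 2 or more treated arrays and the other way on none, or was among the 3 nearest Sgk1. The number of arrays limits the precision.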

Additional observations from a re-analysis of the deposited data

How the results depend on the processing

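With the pair as the block, limma called 0 clones higher and 1 lower. The lower count was 0 without the pairing (no replicate block), 0 with a random replicate block and 0 with Cy5 channels alone, which called 4 higher. Leaving out each pair gave lower counts from 0 to 0. The Sgk1 difference was -0.12 with no replicate block and with Cy5 alone; in the other 12 alternatives it stayed above 0 and missed the threshold, as in the fit reported. The listing test's 3 higher and 3 lower became 1 higher and 2 lower with median centring, and from 0 to 0 in either direction without any treated array, where fewer spots remain. The 10 member readings listed higher became 4 to 9. Gadd45g turned to -0.013 with median centring. Member counts under these settings, and differences without each control pair, were chosen after seeing the data. For the reversals of Sgk1 and the counts of other clones the cause was not tested. Fkbp5 and Nr3c1 have no treated value in any setting.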
